A study of Bos taurus with 9 samples.

Results

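Acetylation of lysine 9 of histone H3 (H3K9ac) was followed in rumen tissue of Holstein cattle by chromatin immunoprecipitation and sequencing, in a control sample and in a sample taken after 24 h of butyrate treatment. The H3K9ac peaks of chromosomes 1 to 29 are described here, 4075 in control and 4255 after butyrate. These 8330 peaks were chosen by antibody and chromosome, out of 86291 peaks in the 8 peak lists examined from the series, which also hold H3K27ac, RNA pol II and H3K9me3. Each condition had 1 library, made with the same rabbit polyclonal antibody lot, the control on lane 1 and the butyrate library on lane 3 of the sequencer, so lane and condition cannot be told apart. The labels give the breed, the tissue and the treatment, and nothing on age, sex or the number of animals. Rumen tissue is a mixture of cell types, and in such bulk material a change in the mix of cells and a change within cells cannot be told apart.

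Acetyl groups on the tail of histone H3 are written by acetyltransferases and removed by histone deacetylases. H3K9ac is typical of active promoters and their flanks, and it is commonly found together with H3K27ac, which marks active promoters and enhancers. Butyrate, a short-chain fatty acid made by the microbes of the rumen, is an energy source for the rumen epithelium and an inhibitor of histone deacetylases. The question behind the comparison was which regions gained or lost this mark under butyrate.

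On chromosomes 1 to 29 the peaks of the 2 lists were nearly equal in number and shape. The log2 ratio of peak numbers, butyrate over control, was 0.06, with a 95% interval for counting error of 4.2e-05 to 0.12. The bases under peaks summed to 1.13 Mb, or 0.0449% of the span, in control and to 1.16 Mb, or 0.0463%, after butyrate. The median width was 247 bp in control, with quartiles of 214 and 310 bp, and 246 bp after butyrate, with quartiles of 213 and 304 bp. The widest control peak had 1030 bp and the widest butyrate peak 945 bp. No peak was narrower than 200 bp and no gap within a list was shorter than 51 bp, and these limits were the same in both lists. With 1 library on each side there was no spread between replicates, so no test between the conditions was run, and every interval given below is a 95% interval that covers counting error only. The peak lists gave no read numbers, and the mapping summary published with the study was not used here. The depth behind the peaks was therefore not compared between the conditions.

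Most H3K9ac peaks stood alone, and a smaller part lay close to a neighbour. The median gap from one peak to the next was 129 kb in control and 115 kb after butyrate, while evenly spread peaks would lie 616 and 590 kb apart. The lower quartiles were 24.9 kb in control and 21.7 kb after butyrate, and the upper quartiles were 514 and 465 kb. Gaps of at most 1 kb made up 6.92% of the 4046 control gaps (interval 6.18 to 7.74) and 7.62% of the 4226 butyrate gaps (6.86 to 8.46). Gaps of at most 10 kb made up 17.0% (15.9 to 18.2) and 18.5% (17.4 to 19.7). At each of the 7 limits from 0.5 to 100 kb the butyrate share was the higher one, and the intervals of the 2 lists overlapped. The shares are cumulative over the same gaps, so the limits are not separate comparisons. The butyrate list is also the longer one, which by itself shortens gaps. The longest gap of the control list was 16.1 Mb, on chr1:26319728-42458633. In the butyrate list it was 28.0 Mb, on chr20:39805760-67853007. For comparison, the median gaps of the H3K9me3 lists, which hold fewer peaks, were 565 kb in control and 321 kb after butyrate, and those of the much longer H3K27ac lists were 5.32 and 5.23 kb.

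**Figure D1:**
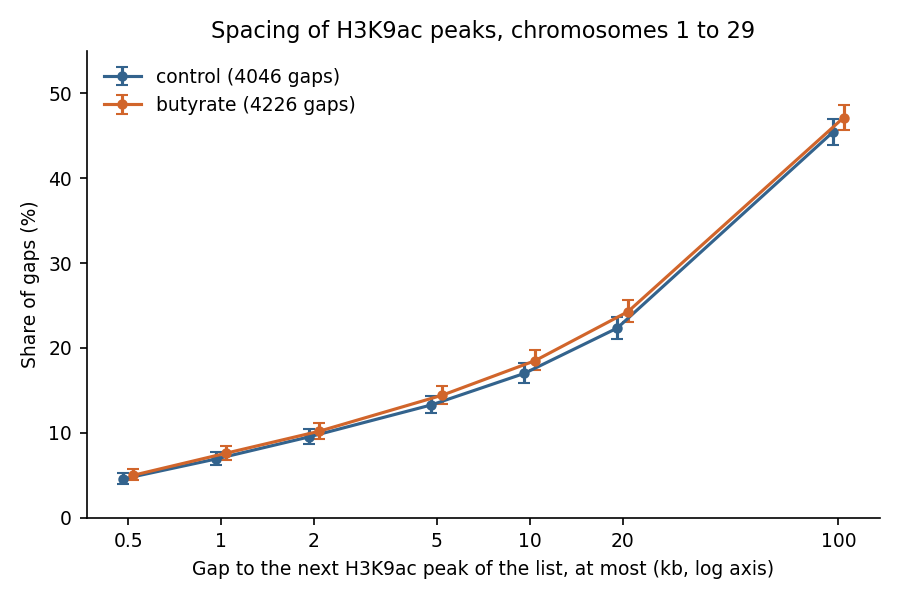
Share of gaps between consecutive H3K9ac peaks (vertical axis, percent) that were at most the length on the horizontal axis (kb, log axis), with 95% Wilson intervals for counting error, for the control list (blue) and the butyrate list (orange). The butyrate points lie slightly above the control points throughout, from 5.02% against 4.57% at 0.5 kb to 47.1% against 45.4% at 100 kb, with overlapping intervals.

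Short gaps were more numerous than somewhat longer ones. In classes of 200 bp, the class of 200 to 400 bp held 81 gaps in control and 100 after butyrate, and the class of 800 to 1000 bp held 30 and 39. The class below 200 bp held 72 and 75 gaps, but it cannot be set against the others, because no gap was shorter than 51 bp. The control list had 280 pairs of neighbours at most 1 kb apart, with a median gap of 357 bp, and the butyrate list had 322 such pairs, with a median gap of 359 bp. Most of these pairs lay in H3K27ac chromatin of their own condition: both peaks were under an H3K27ac peak in 247 control pairs and 275 butyrate pairs. In 99 and 108 pairs both lay under one and the same H3K27ac peak. H3K9ac peaks in general were mostly under H3K27ac of their own condition. In control this held for 96.8% of peaks that overlapped a butyrate peak and 80.9% of the others. After butyrate the shares were 95.7% of peaks that overlapped a control peak and 77.6% of the others. The share expected for both peaks of a pair was not computed.

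Both peaks of a close pair overlapped peaks of the other condition in 20% of the control pairs and 16.8% of the butyrate pairs. Taken one by one, 32.7% of all control peaks and 31.2% of all butyrate peaks had an overlap. The share expected for 2 peaks at once was not computed. In control, both peaks overlapped butyrate peaks in 56 pairs, 1 of the 2 did in 129 pairs, and neither did in 95 pairs (33.9%). After butyrate these numbers were 54, 137 and 131 pairs (40.7% for the last). A pair that met a single wider peak of the other list was rare, with 16 pairs in control and 13 after butyrate.

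When peaks at most 10 kb apart were joined, a neighbour was found for 29.9% of the peaks in control (28.6 to 31.4) and for 31.9% after butyrate (30.5 to 33.3). Control had 429 groups of 2 peaks and 103 clusters of 3 or more, and butyrate had 443 and 133. The clusters of 3 or more held 362 control peaks and 472 butyrate peaks, and their median spans were 7.63 and 7.15 kb. Of the 103 control clusters, 90 (87.4%, interval 79.6 to 92.5) overlapped the span of some butyrate peak or group, and 40 (38.8%, 29.99 to 48.5) overlapped a butyrate cluster of 3 or more. Of the 133 butyrate clusters, 102 (76.7%, 68.8 to 83.1) overlapped the span of a control peak or group, and 40 (30.1%, 22.9 to 38.3) overlapped a control cluster of 3 or more. Most clusters thus met at least 1 peak of the other list, while fewer met a cluster of 3 or more there. A cluster holds several peaks over a longer span, and the share expected from that alone was not computed.

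The cluster with the most peaks was the same region in both lists, on chromosome 5. It held 8 control peaks at chr5:104615959-104646445 and 11 butyrate peaks at chr5:104615974-104646425, together with 13 H3K27ac peaks in control and 15 after butyrate. Of the 8 control peaks 5 overlapped a butyrate peak. The other control peaks, of 327, 466 and 219 bp, lay 35, 2962 and 3490 bp from the nearest butyrate peak. Of the 14 control clusters with at least 5 peaks, the next to be named had equal numbers of peaks with others and was taken for its longer span. This cluster, at chr14:28223278-28248983, went from 5 peaks to 2, and its H3K27ac peaks from 8 to 7. The next butyrate cluster, at chr22:21480906-21500530, had 3 peaks in control and 8 after butyrate. All 3 of its control peaks were found again after butyrate. The 5 added peaks were 211 to 272 bp wide, while its H3K27ac peaks stayed at 12.

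About 1 in 3 H3K9ac peaks was found in the other condition. A butyrate peak overlapped 1331 control peaks by at least 1 bp, or 32.7% (31.2 to 34.1), and a control peak overlapped 1329 butyrate peaks, or 31.2% (29.9 to 32.6). Peaks in clusters of 3 or more were found again more often than single peaks, with 45.9% (40.8 to 51.0) against 30.4% (28.7 to 32.1) in the control list. In the butyrate list the difference was smaller, 36.0% (31.8 to 40.4) against 30.1% (28.5 to 31.8), and the upper end of one interval touched the lower end of the other at 31.8. Over the 29 chromosomes the share of control peaks found again had a median of 32.4% and ran from 20% on chromosome 14 to 45.1% on chromosome 29. Peak numbers in control and after butyrate were unequal there, 130 and 90 on chromosome 14 and 102 and 135 on chromosome 29. The share of butyrate peaks found again was 28.9% and 34.8% on these 2, and ran from 17.4% on chromosome 26 to 36.9% on chromosome 3.

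Where peaks of the lists overlapped, their centres lay close together, within a limit set by the overlap rule. The centres of overlapping peaks cannot lie farther apart than the mean of their widths. The median width of the paired peaks was 273 bp in control and 275 bp after butyrate. The shift expected from overlap alone was not computed. In 1284 pairs that met one to one, the centre was shifted by a median of 47 bp, with quartiles of 19.5 and 99.1 bp, and 669 pairs (52.1%) were shifted by at most 50 bp. The largest shift was 380 bp, and 74 pairs were shifted by more than 200 bp. The signed shift had a median of 1.25 bp. The bases shared by a pair made up a median of 66.6% of their joint span. The butyrate peak was wider in 624 pairs and narrower in 632. The largest gain in width was at chr11:25449926-25450136, 211 bp in control, where the butyrate peak at chr11:25449418-25450362 had 945 bp. The largest loss was at chr10:21812284-21813313, from 1030 bp in control to 246 bp. The shared pair with the largest summed width was at chr10:85543034-85544013, 980 bp wide in control and 593 bp wide after butyrate.

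H3K27ac, which the choice of peaks did not use, was more frequent at the H3K9ac peaks found in both conditions than at the others. Of the control peaks found again, 94.0% (92.6 to 95.1) lay under H3K27ac peaks in both conditions and 1.43% (0.92 to 2.22) under none. Of the 2744 control-only peaks, 73.3% (71.6 to 74.9) lay under H3K27ac in both conditions and 12.6% (11.4 to 13.9) under none. The 2926 butyrate-only peaks were close to the control-only peaks, with 70.3% (68.6 to 71.9) under H3K27ac in both conditions and 13.2% (12.0 to 14.5) under none. Most peaks present in 1 list only thus lay in chromatin that carried H3K27ac on both sides.

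The H3K27ac of the 1-condition peaks did not follow the H3K9ac call. Among control-only H3K9ac peaks 209 (7.62%) had H3K27ac in control alone and 178 (6.49%) had it after butyrate alone. Among butyrate-only peaks 214 (7.31%) had H3K27ac after butyrate alone and 269 (9.19%) had it in control alone, so here the opposite combination was the more frequent one. The H3K27ac control list was also the longer one, with 36963 peaks against 32763.

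Read from the other side, 38.4% of control H3K9ac peaks under H3K27ac of both conditions were found again (36.7 to 40.0), against 15.0% (11.1 to 20.04) with H3K27ac in control alone, 11.9% (8.12 to 17.1) with H3K27ac after butyrate alone and 5.21% (3.36 to 7.99) with none. The share was also higher under wider H3K27ac peaks. Under control H3K27ac peaks of up to 300 bp it was 17.8% (14.9 to 21.2), and under those wider than 1000 bp it was 53.7% (48.5 to 58.8). The butyrate list gave 16.5% (13.8 to 19.7) and 51.3% (45.7 to 56.9) for these 2 classes. H3K9ac peaks under wide H3K27ac peaks were wider themselves, with median widths of 231 and 289 bp in these control classes, and wide H3K9ac peaks were found again more often than narrow ones. Among control peaks the share was 18.0% (14.8 to 21.7) at 200 bp, 28.99% (27.2 to 30.8) above 200 to 300 bp, 43.6% (40.6 to 46.7) above 300 to 500 bp and 74.8% (66.1 to 81.8) above 500 bp. After butyrate it went from 18.0% (15.02 to 21.4) at 200 bp to 64.8% (55.4 to 73.2) above 500 bp. The shares by H3K27ac width were not separated from the width of the H3K9ac peak itself. H3K27ac peaks wider than 1000 bp held an H3K9ac peak in 50.6% of 583 cases in control (46.6 to 54.6) and 50.2% of 492 after butyrate (45.8 to 54.6), against 9.32% and 10.5% of all H3K27ac peaks. The median width of all H3K27ac peaks was 294 bp in control and 302 bp after butyrate. Wider peaks have more bases in which an overlap can fall, and the share expected from width was not computed.

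**Figure D2:**
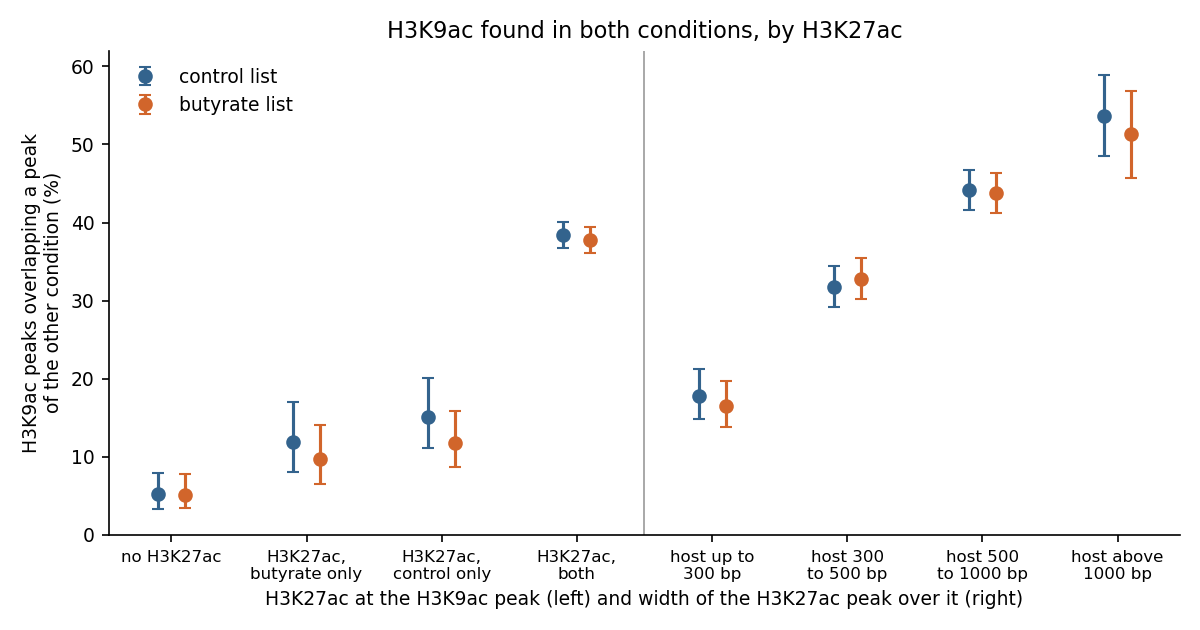
Share of H3K9ac peaks that overlapped an H3K9ac peak of the other condition (vertical axis, percent), by the H3K27ac state at the peak (left of the line) and by the width of the H3K27ac peak of the same condition that covers it (right), with 95% Wilson intervals for counting error. In the control list (blue) the share goes from 5.21% without H3K27ac to 38.4% with H3K27ac in both conditions, and from 17.8% to 53.7% with the width of the H3K27ac peak. The butyrate list (orange) follows the same order.

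RNA pol II, the enzyme that transcribes genes, was called at few H3K9ac peaks, and more often at those found in both conditions. A pol II peak of either condition overlapped 8.19% (6.83 to 9.79) of the control peaks found again and 3.79% (3.14 to 4.57) of the control-only peaks. For the butyrate list the shares were 8.58% (7.19 to 10.2) and 3.32% (2.73 to 4.03). H3K9me3, a mark of silent heterochromatin, was at 2.25% (1.58 to 3.20) and 0.77% (0.50 to 1.17) of these control peaks. The antibodies share the input library, and its part in these overlaps was not tested.

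Many of the peaks without an overlap still lay close to a peak of the other condition. For 348 of the 2744 control-only peaks (12.7%, 11.5 to 14.0) and 355 of the 2926 butyrate-only peaks (12.1%, 10.999 to 13.4) the nearest peak of the other list was at most 1 kb away. Within 10 kb were 808 (29.4%) and 847 (28.9%). The median distance was 44.0 kb in control, with quartiles of 5.77 and 177 kb, and 47.5 kb after butyrate, with quartiles of 6.16 and 188 kb. These distances were much like those to the nearest peak of their own list, which had medians of 46.4 kb for control-only and 41.3 kb for butyrate-only peaks. The H3K9me3 peaks lay farther off, at medians of 657 kb (control H3K9me3) for control-only peaks and 677 kb (butyrate H3K9me3) for butyrate-only peaks, and these lists are shorter than those of H3K9ac.

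The peaks within 1 kb of a peak of the other list stood apart in their H3K27ac. Of the 348 near control-only peaks 334 (96.0%) were under H3K27ac of either condition, and of the 355 near butyrate-only peaks 340 (95.8%). At 100 kb to 1 Mb the shares were 85.3% (82.7 to 87.6) and 84.1% (81.6 to 86.3). In 108 of the near control-only peaks (31.0%, 26.4 to 36.1) and in 108 of the near butyrate-only peaks (30.4%, 25.9 to 35.4) the peak and its neighbour of the other list were covered by one H3K27ac peak of the condition of the first. The neighbour overlapped another peak in 118 control cases (33.9%) and 130 butyrate cases (36.6%). These values were near the shares over all peaks of the neighbour's list, 31.2% of butyrate peaks and 32.7% of control peaks.

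**Figure D3:**
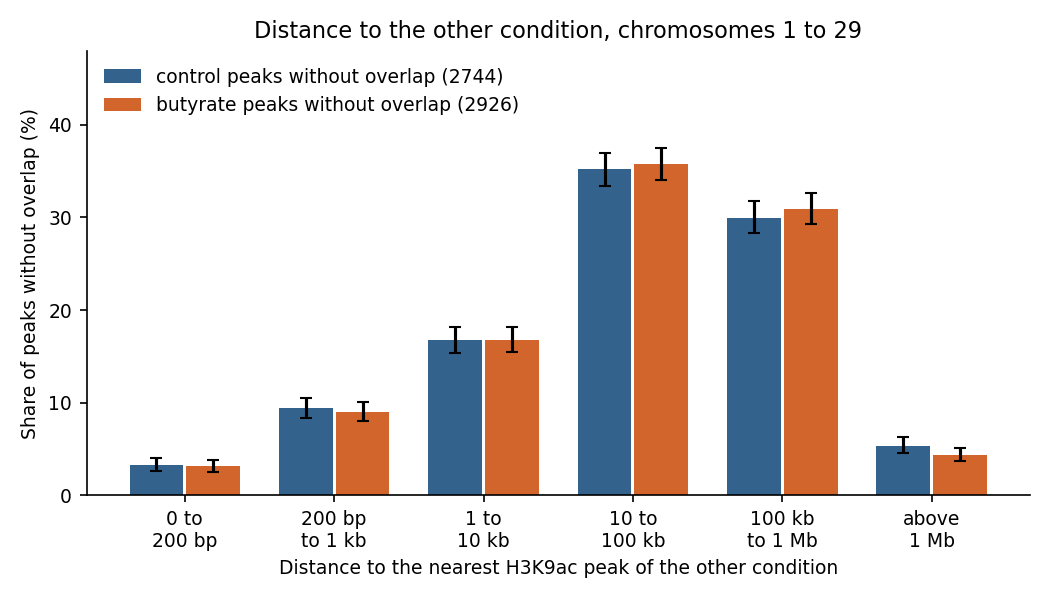
Share of the H3K9ac peaks without an overlap (vertical axis, percent) in 6 classes of distance to the nearest H3K9ac peak of the other condition, for 2744 control-only (blue) and 2926 butyrate-only peaks (orange), with 95% Wilson intervals for counting error. The class of 10 to 100 kb is the largest on both sides, with 35.2% and 35.7%, and the intervals of the 2 sides overlap in every class.

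A few peaks were far from any peak of the other list. More than 1 Mb away were 147 control-only peaks (5.36%, 4.58 to 6.26) and 127 butyrate-only peaks (4.34%, 3.66 to 5.14). The most distant control peaks were chr20:56294189-56294447, 259 bp wide and 11.6 Mb from the nearest butyrate peak, and chr20:58484060-58484307, 248 bp wide and 9.37 Mb away. Both lay in the longest gap of the butyrate list and under H3K27ac peaks of both conditions. The third, chr7:112434389-112434636, was 7.39 Mb away and had no H3K27ac. The most distant butyrate peaks were chr1:34970133-34970337, 205 bp wide, 7.49 Mb from the nearest control peak and inside the longest gap of the control list, and chr1:10069976-10070213, 6.69 Mb away. Both of these had H3K27ac in both conditions. The third, chr8:16843439-16843642, at 5.27 Mb, had none.

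The widest peaks without an overlap were nearer to the other list. In control they were chr14:26513162-26513916 with 755 bp, 621 bp from the nearest butyrate peak, chr11:10096739-10097426 with 688 bp, at 73.7 kb, and chr8:60236863-60237528 with 666 bp, at 35.4 kb. After butyrate they were chr16:53325163-53325838 with 676 bp, at 116 kb, chr10:80720349-80721017 with 669 bp, at 5.40 kb, and chr19:36451461-36452092 with 632 bp, at 14.7 kb. All 6 lay under H3K27ac peaks of both conditions.

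Along the chromosomes, control-only and butyrate-only peaks were interleaved. Among the 7001 positions (a peak found in both lists was counted once, at its control position), 39.2% were control-only, 41.8% butyrate-only and 19.0% shared. After a control-only peak the next was control-only in 40.1% of cases, butyrate-only in 41.3% and shared in 18.7%. After a butyrate-only peak these shares were 38.4%, 43.1% and 18.4%, and after a shared peak 39.1%, 40.1% and 20.8%, so the class of a peak differed little with the class of the one before it. Runs of 5 or more peaks of 1 class numbered 39 for control-only and 57 for butyrate-only. The longest were 10 control-only peaks over 3.43 Mb at chr14:46287812-49713918, 10 control-only peaks over 1.30 Mb at chr4:93378626-94676505, and 9 butyrate-only peaks over 8.73 Mb at chr18:25665240-34394755 and over 2.19 Mb at chr13:74410978-76597064. H3K27ac was present in these runs in both conditions, with 47 and 43 peaks in the run on chromosome 14 and 51 and 64 in the one on chromosome 4, in control and after butyrate.

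Gain and loss were then counted in windows of 1 Mb. Of 2523 windows 1014 (40.2%) held no H3K9ac peak, 1050 held peaks of both lists, 235 of control alone and 224 of butyrate alone. The windows of 1 list alone held few peaks, at most 5 in control and 6 after butyrate, and in all 344 control and 332 butyrate peaks. In 970 of the 1509 windows with a peak (64.3%) the 2 numbers differed by at most 1. The numbers of the 2 lists had a Pearson r of 0.78 and a Spearman rho of 0.58 over these 1509 windows, a description of windows that share the input library and the base composition of the region. The differences of adjacent windows did not run together, with a Pearson r of -0.0030 and a Spearman rho of -0.0068 over 2494 pairs. These pairs were taken from all 2523 windows, so they include the 1014 without a peak, where the difference is 0.

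A window was called gaining when it had at least 3 more peaks after butyrate and at least 2 times the control number, and losing in the opposite case. There were 102 gaining windows, or 6.76% of the 1509, and 77 losing windows, or 5.1%. This split depends on the limits of the call. With butyrate numbers scaled to the total of the control list, 46 windows were gaining and 77 losing. Scaling lowers the butyrate numbers, so every window with exactly 3 more peaks had to drop out, while no losing window could. The scaled numbers therefore cannot show which kind of window is the more frequent. The 56 windows that were no longer gaining all sat at a limit of the call, 51 with exactly 3 more peaks and the other 5 with exactly 2 times the control number. Windows of both kinds were spread widely, the gaining ones over 29 chromosomes and the losing ones over 27. Of the 243 windows with at least 10 peaks in the 2 lists together, which held 47.2% of all H3K9ac peaks, 22 were gaining and 10 losing.

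**Figure D4:**
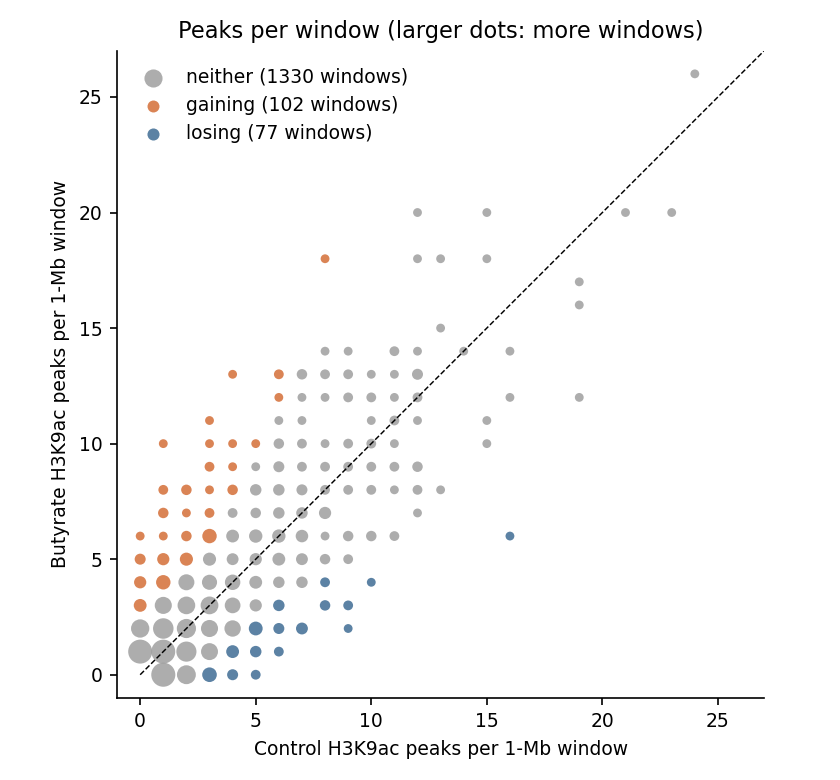
H3K9ac peaks per 1-Mb window in control (horizontal axis) and after butyrate (vertical axis) for the 1509 windows with a peak. Dot size grows with the number of windows at that point, the dashed line marks equal numbers, and colour marks 102 gaining (orange), 77 losing (blue) and 1330 other windows (grey). Most windows lie near the line, and the window with the most peaks has 24 in control and 26 after butyrate.

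The windows with the largest rise were chr19:8000001-9000000, from 8 to 18 peaks, chr22:50000001-51000000, from 4 to 13, chr29:46000001-47000000, from 1 to 10, chr29:44000001-45000000, from 12 to 20, and chr7:23000001-24000000, from 3 to 11. They differed in what became of the control peaks. On chr29:44000001-45000000, 10 of the 12 control peaks were found again beside the added ones. On chr22:50000001-51000000 and chr7:23000001-24000000 none of the 4 and 3 control peaks was. The H3K27ac numbers of these 5 windows went from 71 to 76 on chromosome 19, from 70 to 65 on chromosome 22, from 55 to 40 and from 127 to 117 on chromosome 29, and stayed at 46 on chromosome 7. In 4 of the 5 windows H3K27ac thus did not rise along with H3K9ac.

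The windows with the largest fall were chr14:63000001-64000000, from 16 to 6 peaks, chr5:57000001-58000000, from 19 to 12, chr28:29000001-30000000, from 9 to 2, chr1:74000001-75000000, from 10 to 4, and chr4:93000001-94000000, from 9 to 3. The window chr18:36000001-37000000 also went from 9 to 3 and came after them by position alone. Here too the ranking used the difference alone, and chr5:57000001-58000000 was not called losing, since 19 is less than 2 times 12. On chr28:29000001-30000000 the 2 butyrate peaks were those found in control, and 7 control peaks had no counterpart. On chr1:74000001-75000000 none of the 10 control peaks overlapped a butyrate peak, but 4 of them lay within 1 kb of one, at 26, 890, 349 and 418 bp. H3K27ac went from 48 to 45 on chromosome 14, from 77 to 65 on chromosome 5, from 37 to 32 on chromosome 28 and from 39 to 35 on chromosome 1, and from 27 to 43 on chromosome 4. On chromosome 4 both control peaks that were found again lay at the edge of the group, and the other 7 belonged to the run of 10 control-only peaks named above.

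The windows with the most H3K9ac had similar numbers in both lists. They were chr5:104000001-105000000 with 24 control and 26 butyrate peaks, chr19:43000001-44000000 with 23 and 20, chr5:26000001-27000000 with 21 and 20, chr11:99000001-100000000 with 19 and 17, and chr3:16000001-17000000 with 19 and 16. The window chr10:80000001-81000000, with 15 and 20, had the same sum as the last of these and came after it by position. The peaks themselves were exchanged to a large part, since 10 of the 24, 12 of the 23, 8 of the 21, 7 of the 19 and 8 of the 19 control peaks overlapped a butyrate peak. The genes in these windows were not analysed here.

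H3K27ac numbers were lower after butyrate in every kind of window. In the gaining windows its peaks went from 3742 to 3210, a change of -14.2%. In the losing windows they went from 2133 to 1855, a change of -13.0%, and in the other windows with H3K9ac from 28957 to 25849, a change of -10.7%. H3K27ac numbers were lower after butyrate in 70 of the 102 gaining windows and higher in 21. In the 77 losing windows they were lower in 55 and higher in 16. In the 1330 other windows they were lower in 811 and higher in 345, so the fall was not particular to the called windows. RNA pol II peaks were more numerous after butyrate in all 3 kinds of window. They went from 37 to 91 in gaining, from 34 to 64 in losing and from 543 to 942 in other windows. The whole RNA pol II list was also longer after butyrate, with 1213 gaps between consecutive peaks against 644 in control. The rise in each kind of window was not separated from the length of the list. The differences between kinds of window were not tested.

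By chromosome, 20 had more H3K9ac peaks after butyrate, 8 had fewer and 1 had equal numbers. The counting interval of the ratio of butyrate to control peaks left 1 on 3 of the 29. These 95% intervals were not corrected for their number, and they treat clustered peaks as independent counts. Chromosome 14 had the lowest ratio, 0.692 (0.523 to 0.913), with 130 peaks in control and 90 after butyrate. It held 9 losing windows and 1 gaining window, and H3K27ac on it had a ratio of 0.871, within the range of 0.836 to 0.973 over the 29 chromosomes. Chromosome 29 had 102 and 135 peaks, a ratio of 1.32 (1.02 to 1.73), and chromosome 7 had 208 and 258, a ratio of 1.24 (1.03 to 1.496), with 9 gaining and 2 losing windows. The windows were called from the same peaks as the ratios, so these window numbers are no separate evidence for the chromosomes. Over all chromosomes, 6.76% of the windows with a peak were gaining and 5.1% losing. The highest ratio, 1.71 (0.974 to 3.09), was that of chromosome 27, which had the fewest peaks, 21 and 36, and an interval that included 1. The next lowest after chromosome 14 was chromosome 4, with 109 and 95 peaks and a ratio of 0.872 (0.655 to 1.16). H3K27ac numbers were lower after butyrate on each of the 29 chromosomes.

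**Figure D5:**
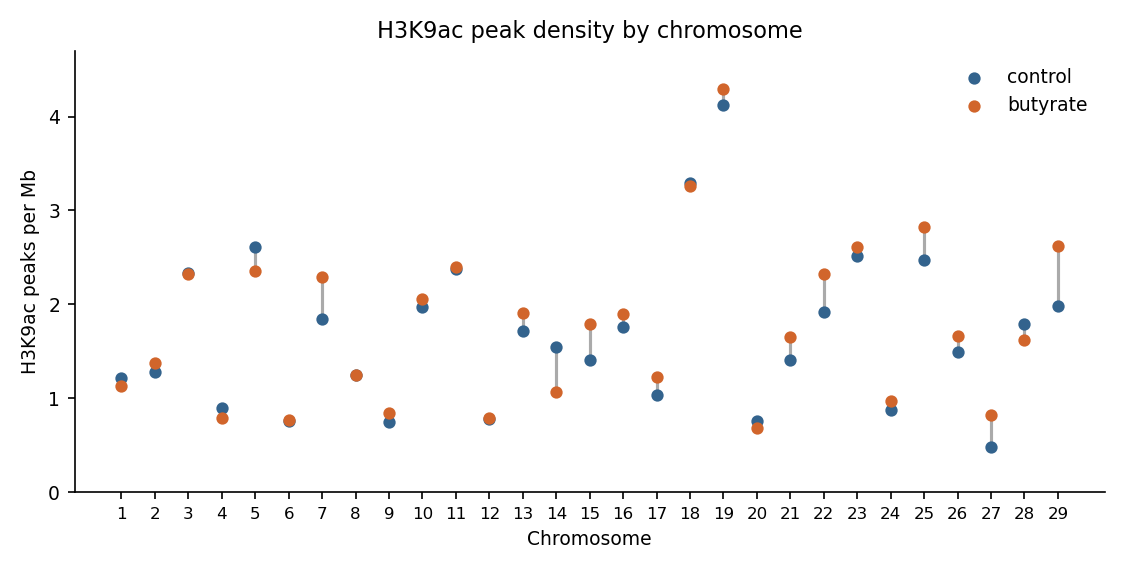
H3K9ac peaks per Mb of chromosome span (vertical axis) on chromosomes 1 to 29 (horizontal axis), in control (blue) and after butyrate (orange), with a grey line joining the 2 values of a chromosome. Chromosome 19 is the densest, with 4.12 and 4.29 peaks per Mb, and the order of the chromosomes is largely kept, while chromosome 14 falls from 1.54 to 1.07 and chromosome 29 rises from 1.98 to 2.62.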

How the data were processed

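According to the methods of the study, the authors aligned reads with BWA at default settings to the cattle assembly UMD3.1.1, kept unique alignments, and called peaks with MACS2 at default settings for each library against 1 input library. Trim Galore 0.4.1 is among the tools of the submitters' processing notes. The deposited lists hold the chromosome, start and end of each peak, and no score, p-value or read number. Depth was not corrected for. Positions were read as 1-based with both ends included and are given as deposited. The methods name UMD3.1.1 and the labels UMD 3.1, and which of these the positions refer to was not settled here. The span of a chromosome was the last position under any of the 8 lists, which sums to 2.51 Gb.

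Overlaps (at least 1 bp), distances between nearest ends, clusters (joined within 10 kb) and counts in 1-Mb windows (by peak centre) were computed in Python 3.11.15 with numpy 2.4.6, pandas 2.3.3 and SciPy 1.17.1, and the functions were tested on simulated lists. Shares carry Wilson 95% intervals and ratios exact binomial ones. Regions were named by rank: the 5 windows with the largest rise, fall and sum, and the clusters, runs, pairs and unmatched peaks at the extremes. The members, lists and rules were chosen with earlier results of these data known. Gene positions and sequence of this assembly were not used here. Other widths, overlaps, distances and windows were tried as alternatives.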

Additional observations from a re-analysis of the deposited data

Results flagged for a closer look

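H3K9ac peaks outside chromosomes 1 to 29 took no part in the comparisons. On X there were 72 peaks after butyrate and 37 in control. On the mitochondrial chromosome there were 13 peaks after butyrate, covering 7416 bp, and 3 in control, covering 773 bp. Both are signals outside the chromosomes compared, higher after butyrate than in control. Mitochondrial DNA carries no histones, and the difference between the lists was not tested.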

How the results depend on the processing

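No paired analysis was possible because replicates are lacking, with 1 library for each condition. With X added, none of 11 values left the interval (or, for windows, the factor of 1.5) of the reported value. The log2 ratio of peak numbers was positive under the 3 settings it was computed for (wider peaks, X added, merging), at 0.05 to 0.07, but its interval included 0 with wider peaks (-0.04 to 0.14) and with merging (-0.01 to 0.12). Window counts stayed within the factor for windows of 500 kb, of 2 Mb and shifted by 500 kb. In all, 30 of 57 values moved, most by construction, since a shorter list or another distance changes the share; other causes were not tested.

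When peaks under the median width were dropped, the shares found again became 28.3% in control and 27.1% after butyrate, shares with a neighbour 18.3% and 19.0%, shares of unmatched peaks within 10 kb of the other list 19.0% and 19.7%, shares of 1-condition peaks under H3K27ac 92.4% and 92.9%, and losing windows 47. When 50% of the shorter peak had to be overlapped, the shares found again were 29.9% and 28.7%, within 10 kb 32.2% and 31.5%, and under H3K27ac 86.1% and 84.6%. With merging within 1 kb unmatched peaks within 10 kb were 25.7% and 24.9%. With butyrate numbers scaled to control, gaining windows were 46. The shares with a neighbour were 13.3% and 14.3% at 1 kb, 24.2% and 25.7% at 5 kb, 37.6% and 40.3% at 20 kb, and 66.1% and 68.0% at 100 kb. The shares of unmatched peaks near the other list were 12.7% and 12.1% at 1 kb and 64.7% in both at 100 kb. The lists gave no scores, so a stricter threshold of enrichment was not tried.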

Other observations

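The deposited rows are not in order of position, but they are not in random order either. The control H3K9ac list falls into 38 runs, and the butyrate list into 46, within which chromosome (as text) and start only increase, the longest with 869 and 822 peaks. The place of a peak in the list carried over between the lists. When each list was divided into 5 equal parts by row, 1014 of the 1284 one-to-one pairs (79.0%) were in the same part of both lists, with a Spearman rho of 0.74 between the places. Over the whole lists, place and width had a rho of -0.05 in both. Among the first 80 rows, 52 of 80 control peaks on chromosomes 1 to 29 (65%) and 46 of 79 butyrate peaks (58.2%) overlapped the other condition, against 32.0% and 30.7% of the later rows. These first rows were also wider, with median widths of 318.5 bp in control and 301 bp after butyrate against 245 bp for the later rows of either list, and wide peaks were found again more often in general. What the order stands for is not given in the sources used here.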
